A study of Gossypium hirsutum with 2 samples.

Results

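Transcripts of fatty acid synthesis, desaturation and activation were compared between FL ovule and WT fiber of upland cotton, Gossypium hirsutum, both taken on day 10 after anthesis. The series was set up to find RNA editing sites in cotton. FL ovule was ovule of XZ142FLM, a line of genotype li3li3n2n2 whose seeds are described as fuzzless and lintless. WT fiber was fiber of Xuzhou142, the wild type with normal fibers. Both were greenhouse plants and each group was 1 library, so every difference below lacks a replicate check and no test of the groups was possible. The libraries differ in tissue as well as in genotype, and the effects of these cannot be told apart. The labels do not say how many plants entered a library. The unit of measurement was the unigene, a transcript sequence assembled from reads, which carries the annotation text of its best database match. Members were the 137 of 136262 unigenes whose text names acetyl-CoA carboxylase, biotin carboxylase or its carrier, an acyl carrier protein, a desaturase or a long-chain acyl-CoA synthetase, without carotene and sphingolipid texts. Levels are RPKM, reads per kilobase of unigene and per M reads of the library (M stands for 1000000). In whole tissue RNA, fewer cells of a type and less RNA per cell cannot be told apart.

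Plant fatty acids are built in plastids. Acetyl-CoA carboxylase makes malonyl-CoA, and the growing chain is then carried on acyl carrier protein (ACP) while ketoacyl-ACP synthases add carbons to it. Stearoyl-ACP desaturase sets the first double bond, thioesterases release the finished acid, and membrane desaturases of the omega-6 and omega-3 kind turn oleate into linoleate and linoleate into linolenate. Long-chain acyl-CoA synthetases activate the released acids for use outside the plastid. Cotton seed stores oil rich in linoleate, and cotton fibers are epidermal cells of the seed coat that elongate for weeks and need much new membrane.

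The members did not differ as 1 block. Of the 137 members, 89 were measured, meaning that FL ovule, WT fiber or both gave them an RPKM of at least 1, and 48 were below that in both. The ratio used was log2((RPKM in FL ovule + 1) / (RPKM in WT fiber + 1)), which understates differences of weakly expressed unigenes. By it 15 measured members were higher in FL ovule by 2-fold or more, 17 were lower by 2-fold or more, and 57 lay in between. Calls of 2-fold below use this ratio, so a fold of plain RPKM can pass 2 without a call. The share of higher members was 16.9%, beside a background of 15.3% of all 63258 measured unigenes, and the share of lower members was 19.1%, beside a background of 10.5%. At 5 RPKM or more the lower share was 26.8% of 56 members and 22% of 19550 unigenes, a smaller distance than over all levels.

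The median ratio of the members was 0.22, and that of all measured unigenes was 0.39. Relative to that general shift towards FL ovule, 9 members were at least 2-fold higher and 30 at least 2-fold lower in FL ovule. These were 10.1% and 33.7% of the measured members, beside backgrounds of 6.1% higher and 17.1% lower over all unigenes counted in the same way. The split by direction depended on scaling. FL ovule had the higher level in 46.9% of the members past 2-fold when the deposited RPKM were used. With both libraries brought to the same RPKM sum the share was 19.5%, with 8 members higher and 33 lower, beside backgrounds of 7.25% higher and 21% lower over all unigenes. Median ratio scaling gave 54.5%, with 18 higher and 15 lower, beside 18.2% and 8.9%. Upper quartile scaling gave 40.6%, with 13 higher and 19 lower, beside 13.2% and 12%. Read totals that leave out the 30 most-read unigenes gave 68.2%, with 30 higher and 14 lower, beside 28.4% and 6.34%. No member past 2-fold changed sign under any of these 5 scalings. Of the 15 higher members 8 stayed past 2-fold under all 5, and of the 17 lower members 13 did. The matching shares of all unigenes are not given, so these counts have no background. The common RPKM sum moved the median of all unigenes from 0.39 to -0.23, so higher calls are lost under it more readily than lower ones.

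**Figure D1:**
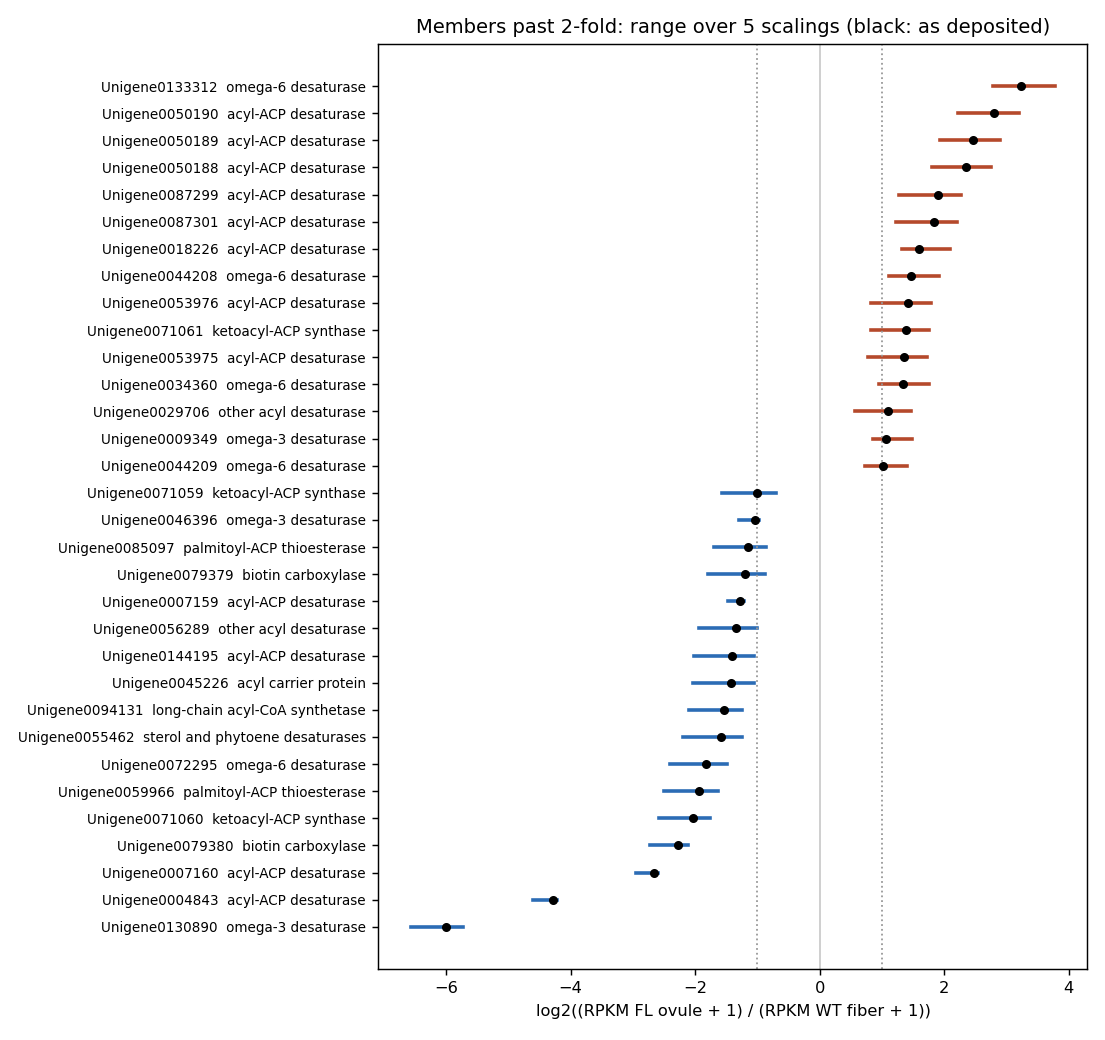
The x axis gives the log2 ratio of FL ovule over WT fiber for the 32 members past 2-fold, the black point as deposited and the bar over 5 scalings; red marks members higher and blue members lower in FL ovule. Ratios as deposited run from -6.01 for Unigene0130890 to 3.24 for Unigene0133312.

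Ratios also differed by length. Members of 500 bases or longer had a median ratio of -0.51, with 8 higher and 14 lower in FL ovule of 58 measured, whereas the 31 measured members under 500 bases had a median of 0.70, with 7 higher and 3 lower. The longer members were thus 13.8% higher and 24.1% lower, beside 13.3% and 11.9% of all unigenes of that length. The shorter members were 22.6% higher and 9.68% lower, beside 18.7% and 8.21%, near their background. Over all measured unigenes the medians were 0.28 for the longer and 0.56 for the shorter ones, a gap of the same direction. The members' summed level was 1553 RPKM in FL ovule and 2315 RPKM in WT fiber, a ratio of 0.67. The same ratio over all unigenes was 1.54. A single omega-3 desaturase unigene, Unigene0130890, made up 462 RPKM of the WT fiber sum.

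**Figure D2:**
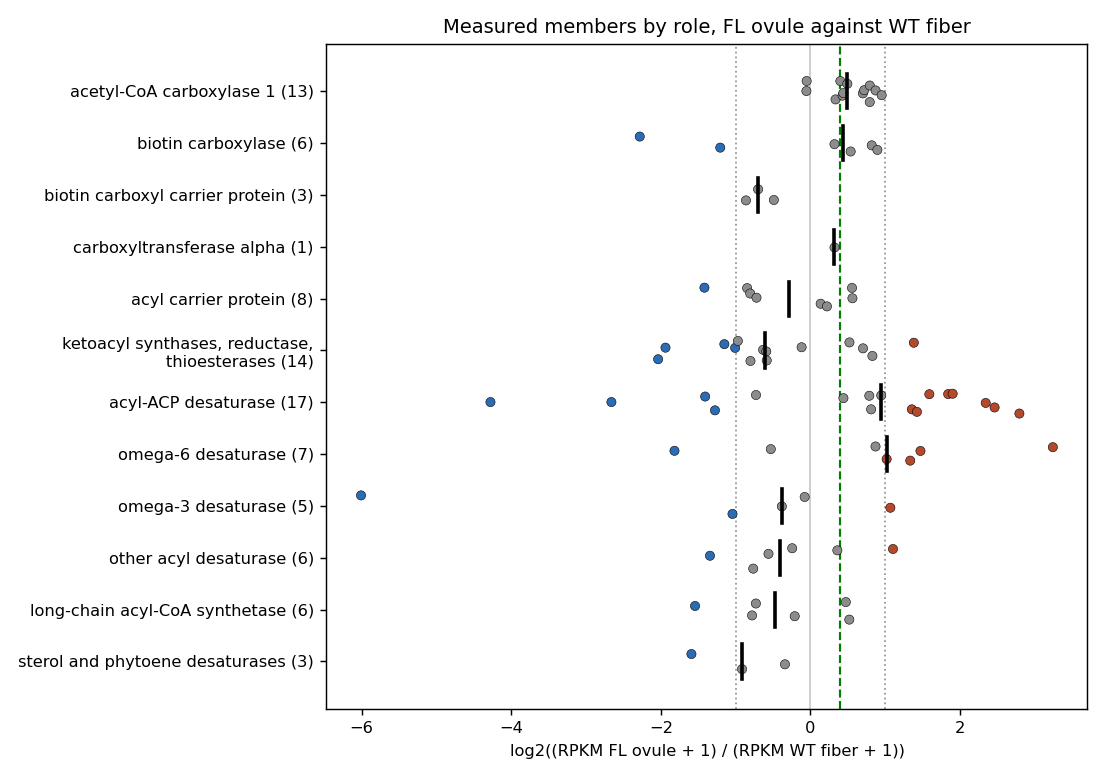
Each point is 1 of the 89 measured members, placed by its log2 ratio of FL ovule over WT fiber within its role (number measured in brackets), in red at 1 or more, in blue at -1 or less and in grey between. Black bars are medians of a role, dotted lines mark 2-fold and the green dashed line is the median of all measured unigenes, 0.39; the acyl-ACP desaturases spread from -4.28 to 2.79.

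FL ovule had 53.4 M and WT fiber 45.6 M reads assigned to unigenes, so that 1 read on 1 kilobase equals 0.0187 RPKM in FL ovule and 0.0219 RPKM in WT fiber. The 30 most-read unigenes took 38.5% of the reads of FL ovule and 21.1% of those of WT fiber, which lowers the RPKM of every other unigene by different amounts. Marker lists differed between the groups, and within a list counts and sums could differ in direction. Their counts past 2-fold stand beside backgrounds of 15.3% higher and 10.5% lower over all measured unigenes. Fiber elongation texts summed to 6133 RPKM in FL ovule and 33660 RPKM in WT fiber, although only 68 of 202 measured were at least 2-fold lower in FL ovule and 53 were higher. Texts of dividing cells had 61 of 116 measured unigenes higher and 7 lower in FL ovule, with sums of 5254 RPKM in FL ovule and 1347 RPKM in WT fiber. Seed coat texts summed to 338 RPKM in FL ovule and 127.5 RPKM in WT fiber, with 3 of 4 measured higher. Vascular texts had 19 of 50 higher and 5 lower although their sums were 464 RPKM in FL ovule and 2261 RPKM in WT fiber. Of these sums 1 unigene, Unigene0061017 with a xylem bark cysteine peptidase text, held 125 RPKM in FL ovule and 2111 RPKM in WT fiber. Embryo and endosperm texts had 29 of 78 higher and 17 lower, with sums of 1348 RPKM in FL ovule and 1208 RPKM in WT fiber; 3 of the 115 unigenes had 0 reads in FL ovule and 9 had 0 reads in WT fiber. An 11S globulin seed storage text, Unigene0127740, had 13.2 RPKM in FL ovule and 0.035 RPKM in WT fiber. Other texts of that list lay the other way. The most abundant oleosin text, Unigene0035516, had 7.01 RPKM in FL ovule and 36.1 RPKM in WT fiber, and the most abundant late embryogenesis text, Unigene0137693, had 138.5 RPKM in FL ovule and 273.7 RPKM in WT fiber. Green tissue texts had 19 of 85 higher and 10 lower, whereas their sums were 805 RPKM in FL ovule and 1236 RPKM in WT fiber. A photosystem II CP43 text, Unigene0108071, made up 207.7 RPKM of the FL ovule sum and 616.8 RPKM of the WT fiber sum. The part of these tissue differences in the results below was not tested.

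Acetyl-CoA carboxylase exists in plants as a large multidomain enzyme of the cytosol and as a plastid complex of separate subunits. In Arabidopsis acetyl-CoA carboxylase 1 is the cytosolic form, which supplies malonyl-CoA for chain elongation outside the plastid. Members with that name lay close together. Of 18 such unigenes 13 were measured, and 0 of 13 were past 2-fold in either direction, beside backgrounds of 15.3% higher and 10.5% lower. Unigene0112826, with 7803 bases the next to longest member, had 15.3 RPKM in FL ovule and 15.9 RPKM in WT fiber, a 1.04-fold difference (95% counting interval 1.004 to 1.079). The longest member, Unigene0112827 of 7937 bases, had 5.31 RPKM in FL ovule and 3.66 RPKM in WT fiber. The most abundant fragment, Unigene0051617, had 15.9 RPKM in FL ovule and 8.25 RPKM in WT fiber. The largest ratio of the group, 0.95, belonged to Unigene0051618 with 10.98 RPKM in FL ovule and 5.195 RPKM in WT fiber. Its plain RPKM, without the added 1, were 2.11-fold higher in FL ovule (1.74 to 2.57). The median of the group was 0.49, close to that of all unigenes. With totals that leave out the most-read unigenes 7 of 16 were higher and 0 lower, beside backgrounds of 28.4% and 6.34% under that scaling.

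Subunits of the plastid complex went different ways. Biotin carboxylase, which loads carbon dioxide onto the biotin of the complex, had 2 texts that differed in direction. The chloroplast biotin carboxylase unigene Unigene0079380 had 1.75 RPKM in FL ovule and 12.4 RPKM in WT fiber, a 7.07-fold lower level in FL ovule (6.08 to 8.26). Its companion Unigene0079379 had 11.2 RPKM in FL ovule and 27.1 RPKM in WT fiber and was 2.42-fold lower (2.26 to 2.60); with totals that leave out the most-read unigenes its ratio was -0.88, within 2-fold. By contrast, all 4 biotin carboxylase 1 fragments, of 212 to 408 bases, had positive ratios of 0.32 to 0.89, although 2 of them turned slightly negative at a common RPKM sum. Among them Unigene0045389 had 19.9 RPKM in FL ovule and 15.7 RPKM in WT fiber, and Unigene0045390 had 7.21 RPKM in FL ovule and 3.65 RPKM in WT fiber.

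Biotin carboxyl carrier protein, the subunit that bears the biotin, was mostly unmeasured: 6 of 9 unigenes stayed under 1 RPKM in both libraries. The 3 measured ones had negative ratios of -0.49 to -0.86, within 2-fold. Unigene0079307 had 30.3 RPKM in FL ovule and 55.9 RPKM in WT fiber, and Unigene0079309 had 25.96 RPKM in FL ovule and 42.8 RPKM in WT fiber. The carboxyltransferase alpha subunit, which hands the carbon to acetyl-CoA, had 43.1 RPKM in FL ovule and 34.5 RPKM in WT fiber (Unigene0091737), a 1.25-fold higher level in FL ovule (1.204 to 1.291) whose ratio was -0.30 at a common RPKM sum. No member text named the beta subunit. Over all 34 carboxylase members, 23 measured, 0 were higher in FL ovule by 2-fold or more and 2 were lower, beside backgrounds of 15.3% and 10.5%. Their summed levels were 255 RPKM in FL ovule and 267 RPKM in WT fiber.

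Acyl carrier proteins, small proteins to which the chain is bound, were among the most abundant members. All 8 were measured, with a median ratio of -0.29. By 2-fold or more 1 was lower in FL ovule and 0 were higher, beside backgrounds of 10.5% and 15.3%. The lower one, Unigene0045226, bears the text fiber-specific acyl carrier protein of Gossypium hirsutum and had 140.3 RPKM in FL ovule and 376.5 RPKM in WT fiber, a 2.68-fold lower level (2.61 to 2.75). Despite its name it was the third most abundant member of FL ovule, on 8315 reads. A chloroplast-type acyl carrier protein 1, Unigene0052712, leaned the other way, with 145.9 RPKM in FL ovule and 98.6 RPKM in WT fiber, except at a common RPKM sum, where its ratio was -0.06. Next in abundance was Unigene0044307 with 72.7 RPKM in FL ovule and 121 RPKM in WT fiber. Mitochondrial acyl carrier protein 1, which serves fatty acid and lipoate synthesis of mitochondria, had 18.6 RPKM in FL ovule and 34.3 RPKM in WT fiber (Unigene0130441). The summed level of the group was 468 RPKM in FL ovule and 747 RPKM in WT fiber. At a common RPKM sum 4 of 7 were lower, beside a background of 21% under that scaling. With totals that leave out the most-read unigenes the median was 0.06.

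**Figure D3:**
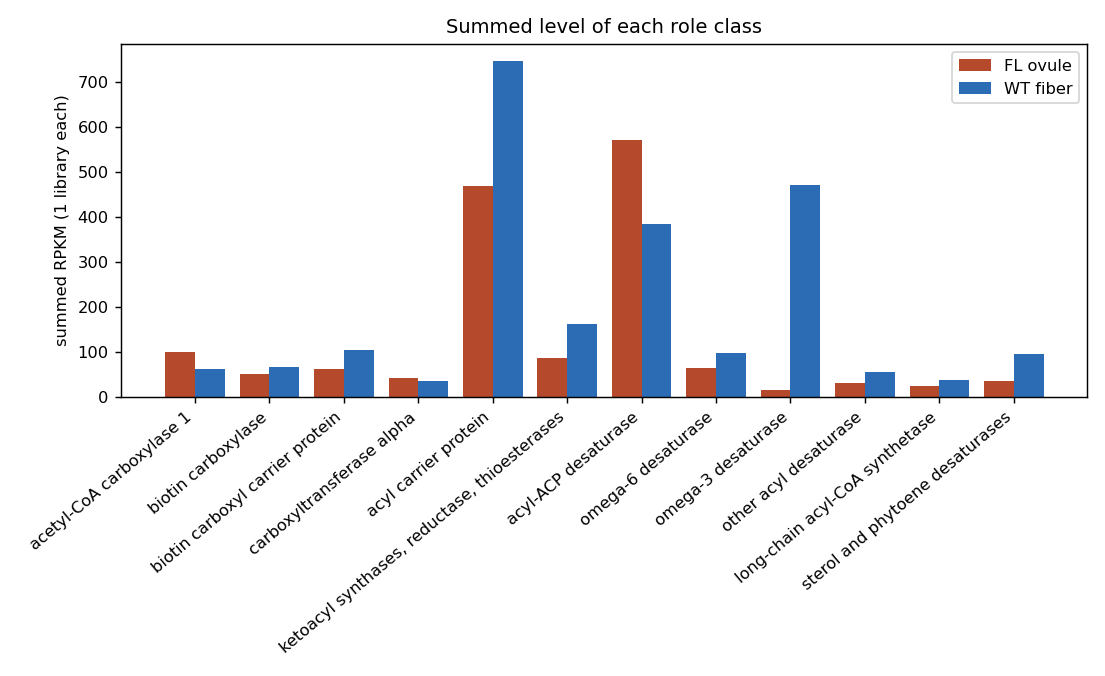
Bars give the summed RPKM of all members of a role, FL ovule left in red and WT fiber right in blue, 1 library each and therefore without error bars. The omega-3 desaturases sum to 14.4 in FL ovule against 470 in WT fiber, and the acyl-ACP desaturases to 571 in FL ovule and 383 in WT fiber.

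Enzymes that act on the ACP-bound chain numbered 29, of which 14 were measured. By 2-fold or more 1 was higher and 4 were lower in FL ovule, beside backgrounds of 15.3% and 10.5%. Ketoacyl-ACP synthase I, which carries out most of the chain extensions, was represented by 7 measured unigenes of differing direction. Unigene0071060 had 5.29 RPKM in FL ovule and 24.8 RPKM in WT fiber, 4.69-fold lower in FL ovule (4.28 to 5.14). Unigene0071061, with the same text and a length of 2262 bases beside 2080, had 12.1 RPKM in FL ovule and 4.02 RPKM in WT fiber, 3.004-fold higher (2.69 to 3.36), within 2-fold at a common RPKM sum. The most abundant one, Unigene0071062, had 14.4 RPKM in FL ovule and 29.1 RPKM in WT fiber. Its ratio of -0.97 was just within 2-fold, though its plain RPKM were 2.03-fold lower in FL ovule. Unigene0071059 at -1.01 lay just past 2-fold. Since the counts are of uniquely assigned reads, reads shared by near-identical copies can be missing from such unigenes. Single values are uncertain in that respect. Ketoacyl-ACP synthase III, which starts the chain, was low: Unigene0096305 had 1.64 RPKM in FL ovule and 1.86 RPKM in WT fiber, and its 5 companions were unmeasured. The only reductase text, Unigene0043583, was also unmeasured.

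Palmitoyl-ACP thioesterase ends synthesis by releasing palmitate. All 4 measured members of this name were lower in FL ovule, 2 of them past 2-fold, beside a background of 10.5% lower. With totals that leave out the most-read unigenes 1 was past 2-fold, beside 6.34%. Unigene0059966 had 7.51 RPKM in FL ovule and 31.6 RPKM in WT fiber, 4.21-fold lower (3.81 to 4.66). Unigene0085097 had 5.87 RPKM in FL ovule and 14.3 RPKM in WT fiber. The group summed to 24.6 RPKM in FL ovule and 65.7 RPKM in WT fiber, and its median stayed negative under each scaling, between -0.67 and -1.53. FatB texts, which name thioesterases of saturated chains such as palmitate, lie outside the member rule and did not lean alike. Their 10 measured unigenes had ratios of -1.35 to 0.88 and summed to 50.3 RPKM in FL ovule and 57.1 RPKM in WT fiber.

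The acyl-ACP desaturases, soluble plastid enzymes that make oleate from stearate, differed widely among themselves. All 17 were measured, 8 of them higher and 4 lower in FL ovule by 2-fold or more, beside backgrounds of 15.3% and 10.5%. The most abundant member of FL ovule was among them, Unigene0087299, with 189.9 RPKM in FL ovule and 50.1 RPKM in WT fiber, 3.79-fold higher (3.62 to 3.96). Its text is a stearoyl-ACP desaturase of the legume Millettia pinnata. Unigene0087301 had 61.6 RPKM in FL ovule and 16.5 RPKM in WT fiber, a 3.74-fold difference (3.36 to 4.17). A set with consecutive numbers showed the largest ratios towards FL ovule. Unigene0050190 had 29.7 RPKM in FL ovule and 3.43 RPKM in WT fiber, 8.65-fold higher (7.11 to 10.6). Unigene0050189 was 8.01-fold higher (5.70 to 11.6) and Unigene0050188 6.64-fold higher (4.53 to 10.1). They have 703, 452 and 253 bases, and whether they are pieces of 1 transcript was not tested. Close numbers also occurred in Unigene0087299 and Unigene0087301, in the higher Unigene0053975 and Unigene0053976, and in the lower Unigene0007159 and Unigene0007160. The counts of higher and lower unigenes may thus stand for fewer transcripts.

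Other acyl-ACP desaturases were lower in FL ovule. AE9 stearoyl-ACP desaturase, a Gossypium hirsutum text, was carried by 4 unigenes, and Unigene0144195 among them had 44.7 RPKM in FL ovule and 120.3 RPKM in WT fiber, 2.69-fold lower (2.60 to 2.79). The other 3 were within 2-fold, with ratios of -0.73 to 0.79, and the 4 together summed to 173 RPKM in FL ovule and 247 RPKM in WT fiber. Unigene0004843 had 0 reads in FL ovule and 489 reads, or 18.4 RPKM, in WT fiber. A count of 0 allows up to 3 reads. With 3 reads in place of 0 its level was 190.8-fold lower in FL ovule. Folds of this kind leave out the counting error of the other library, so they are not lower limits. Unigene0007160 likewise had 0 reads in FL ovule and 93 reads in WT fiber, 36.3-fold lower with 3 reads in place of 0. Unigene0007159, numbered next to it, had 4 reads in FL ovule and 36 reads in WT fiber. In the opposite direction Unigene0018226 had 39 reads in FL ovule and 0 in WT fiber, 11.1-fold higher with 3 reads in place of 0. The group's summed level was 571 RPKM in FL ovule and 383 RPKM in WT fiber, a ratio of 1.49 that was 0.97 at a common RPKM sum.

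Omega-6 desaturases, which turn oleate into linoleate, separated by their text. Of 9 unigenes 7 were measured, 4 of them higher and 1 lower in FL ovule by 2-fold or more, beside backgrounds of 15.3% and 10.5%. All 3 measured unigenes named omega-6 desaturase of Gossypium hirsutum were among the higher ones. Their levels were low, 1.57 to 2.91 RPKM in FL ovule and 0.271 to 0.553 RPKM in WT fiber, the latter on 5 to 15 reads. At a common RPKM sum 1 of these 3 stayed past 2-fold, beside a background of 7.25% higher. After upper quartile scaling 2 did, beside 13.2%. Delta-12 oleate desaturase, Unigene0133312, had 12.8 RPKM in FL ovule and 0.461 RPKM in WT fiber, 27.8-fold higher (19.4 to 41.1), the largest ratio towards FL ovule of all measured members. Conversely, the delta-12 fatty acid desaturase unigene Unigene0072295 had 14.6 RPKM in FL ovule and 54.0 RPKM in WT fiber, 3.70-fold lower (3.48 to 3.94). Its companion Unigene0072296 had 27.5 RPKM in FL ovule and 40.1 RPKM in WT fiber, within 2-fold. Of the 3 texts of fatty acid desaturase 6, the plastid omega-6 enzyme of Arabidopsis, only Unigene0074322 was measured, with 2.22 RPKM in FL ovule and 0.761 RPKM in WT fiber. In sum the class had 65.3 RPKM in FL ovule and 96.8 RPKM in WT fiber, while its median ratio was 1.018, so sum and median differed in direction. Among the 3 unigenes at 5 RPKM or more the median was -0.53, on the side of the sum.

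The omega-3 desaturases, which make linolenate from linoleate, contained the member with the ratio farthest from 0 on the log2(RPKM + 1) scale. Unigene0130890, with the text of cacao fatty acid desaturase 8, a plastid enzyme in Arabidopsis, had 6.20 RPKM in FL ovule on 516 reads and 462 RPKM in WT fiber on 32866 reads. It was 74.5-fold lower in FL ovule (68.3 to 81.5), the most abundant member of WT fiber, and its ratio lay between -5.73 and -6.57 under the scalings tried. The other unigenes of the class were few and weak. Of 12, 5 were measured, and besides Unigene0130890 the highest level was that of Unigene0046397. It had 2.84 RPKM in FL ovule and 3.05 RPKM in WT fiber, 1.075-fold lower with a counting interval of 0.701 to 1.65 that includes no difference. An omega-3 text without desaturase number, Unigene0009349, had 21 reads in FL ovule and 0 in WT fiber. With 3 reads in place of 0 its level was 5.98-fold higher in FL ovule, without the counting error of the 21 reads. The class summed to 14.4 RPKM in FL ovule and 470 RPKM in WT fiber, a ratio of 0.031, and without Unigene0130890 the ratio was 0.99.

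**Figure D4:**
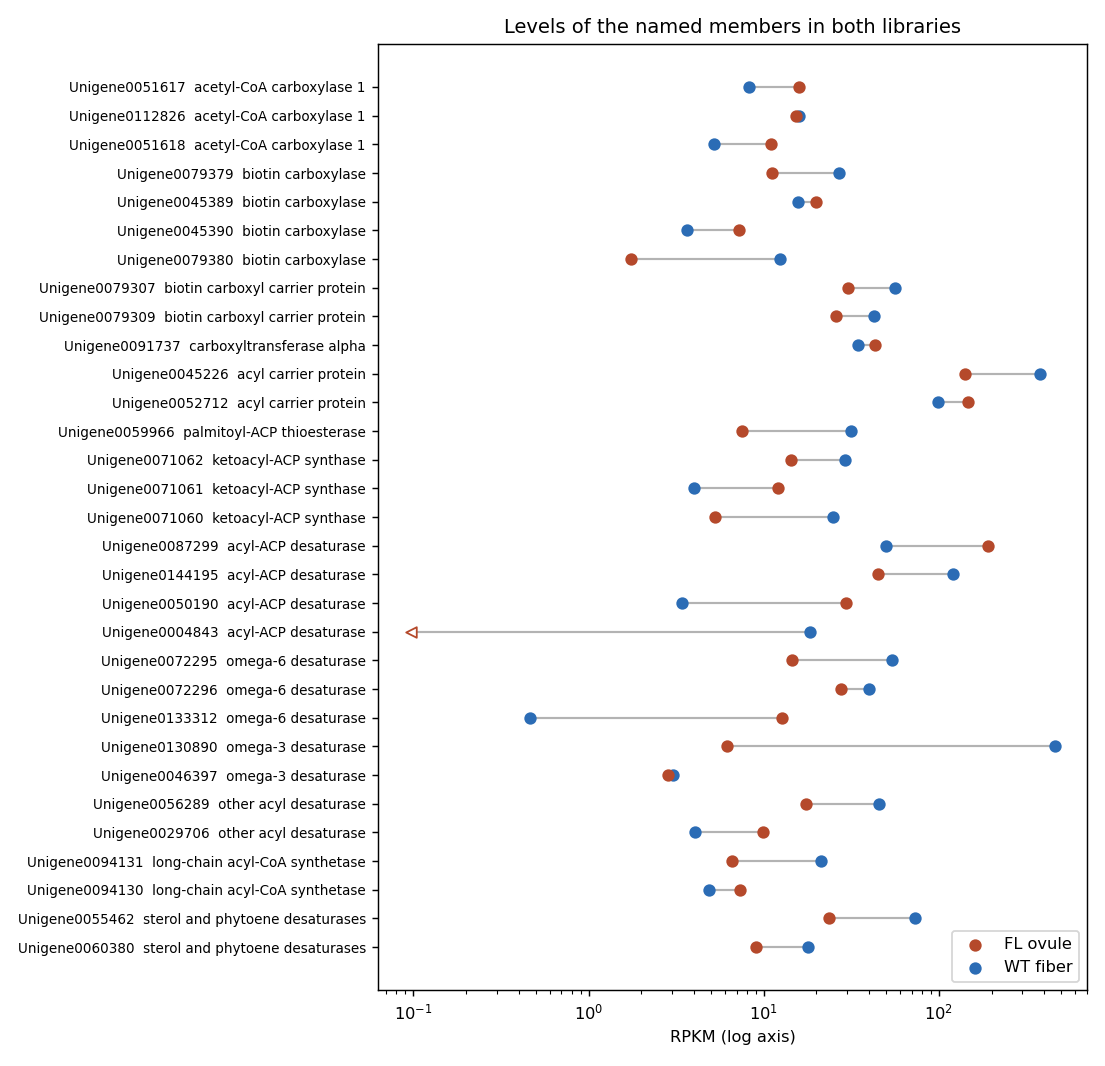
Points give the RPKM of the 31 named members on a log axis, FL ovule in red and WT fiber in blue, joined by a line per unigene; the open triangle is the level that 3 reads would give where FL ovule had 0 reads. The longest line among members read in both libraries belongs to Unigene0130890, with 6.20 in FL ovule and 462 in WT fiber.

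Further acyl desaturases were mostly lower or alike in FL ovule. A fatty acid desaturase family protein, Unigene0056289, had 17.4 RPKM in FL ovule and 45.6 RPKM in WT fiber, 2.63-fold lower (2.46 to 2.81). Unigene0029706, whose best match is an algal fatty acid desaturase of Chlamydomonas reinhardtii, had 9.90 RPKM in FL ovule and 4.07 RPKM in WT fiber, 2.43-fold higher (1.93 to 3.08). Its ratio was 0.56 at a common RPKM sum. Fatty acid desaturase 5, which in Arabidopsis desaturates palmitate of plastid galactolipids, had 0.467 RPKM in FL ovule and 1.49 RPKM in WT fiber (Unigene0018359). Its ratio of -0.77 was within 2-fold, though its plain RPKM were 3.20-fold lower in FL ovule (1.73 to 6.22). All other unigenes of the group were within 2-fold or unmeasured.

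Among long-chain acyl-CoA synthetases 6 of 11 were measured. In FL ovule 1 was at least 2-fold lower and 0 were higher, beside backgrounds of 10.5% and 15.3%. Synthetase 6 and synthetase 7 are peroxisomal enzymes of fatty acid breakdown in Arabidopsis, and synthetase 2 serves cutin formation there. The lower one was a synthetase 6 text, Unigene0094131, with 6.61 RPKM in FL ovule and 21.2 RPKM in WT fiber, 3.20-fold lower (2.88 to 3.57). Another of the 7 unigenes with this text, Unigene0094130, had 7.37 RPKM in FL ovule and 4.84 RPKM in WT fiber. Synthetase 2 had 2.11 RPKM in FL ovule and 4.16 RPKM in WT fiber (Unigene0083894), and synthetase 7 had 0.602 RPKM in FL ovule and 1.75 RPKM in WT fiber (Unigene0092133).

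The text rule also took in 10 desaturases of other substrates. Of 8 phytoene desaturase unigenes, from carotenoid synthesis, 1 was measured, at 1.05 RPKM in FL ovule and 1.60 RPKM in WT fiber. The sterol C5(6) desaturase, a late enzyme of sterol synthesis, had 23.7 RPKM in FL ovule and 73.5 RPKM in WT fiber, 3.10-fold lower (2.94 to 3.27; Unigene0055462). A unigene with a sterol desaturase domain, Unigene0060380, had 9.05 RPKM in FL ovule and 17.9 RPKM in WT fiber. Without these 10 the counts were 15 higher and 16 lower.

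Unigenes of equal text did not always lean alike. There were 17 member texts with 2 or more measured unigenes, 59 unigenes in all. In 9 of these texts ratios of both signs occurred, and in 3 of them members were past 2-fold both ways: ketoacyl-ACP synthase I isoform 1, the stearoyl-ACP desaturase family text of cacao, and the partial stearoyl-ACP desaturase of Ricinus communis. Apart from their text, the members shared pathway labels of the authors' annotation: 72 of 137 carried fatty acid biosynthesis, 41 carried biosynthesis of unsaturated fatty acids, and 42 carried neither. A plastid component was given for 36 of the 53 members with a cellular component.

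Neighbouring steps of the pathway were followed by text lists that leave the members out. Counts past 2-fold in these lists stand beside backgrounds of 15.3% higher and 10.5% lower over all measured unigenes. The transcription factor WRINKLED1 activates genes of glycolysis and plastid fatty acid synthesis in Arabidopsis seeds. Its text was at least 2-fold higher in FL ovule in 3 of 3 unigenes under each scaling. Backgrounds of higher unigenes ran from 7.25% to 28.4% over the scalings. Unigene0140043 had 7.72 RPKM in FL ovule and 0.505 RPKM in WT fiber, 15.3-fold higher (10.45 to 23.25). Unigene0078197 had 16.1 RPKM in FL ovule and 3.09 RPKM in WT fiber, and Unigene0078198 had 14.4 RPKM in FL ovule and 2.70 RPKM in WT fiber. These last unigenes have consecutive numbers, and whether they are pieces of 1 transcript was not tested.

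Fatty acid synthase steps with other spellings were balanced, with 1 of 15 measured higher and 1 lower in FL ovule. FatA, the thioesterase that prefers oleate, had positive ratios of 0.51 to 1.30 in its 3 measured unigenes, with Unigene0056467 at 12.4 RPKM in FL ovule and 4.44 RPKM in WT fiber. The smallest of them was -0.09 at a common RPKM sum. FatB texts, thioesterases of saturated chains, had 0 of 10 measured unigenes higher and 1 lower in FL ovule by 2-fold or more. They summed to 50.3 RPKM in FL ovule and 57.1 RPKM in WT fiber. Unigene0085094 had 9.87 RPKM in FL ovule and 14.0 RPKM in WT fiber, whereas Unigene0085090 had 7.03 RPKM in FL ovule and 3.365 RPKM in WT fiber. Acetyl-CoA supply and cofactor enzymes had 0 of 26 higher and 1 lower, a pyruvate dehydrogenase alpha subunit (Unigene0092779) with 24.3 RPKM in FL ovule and 64.2 RPKM in WT fiber; the largest positive ratio was that of ATP-citrate lyase A-1 (Unigene0141275), with 22.8 RPKM in FL ovule and 11.2 RPKM in WT fiber.

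Electron donors of desaturases, the cytochrome b5 and ferredoxin texts, had 6 of 56 higher and 4 lower. Cytochrome b5 of Unigene0047002 had 749 RPKM in FL ovule and 247 RPKM in WT fiber, and a ferredoxin-related unigene, Unigene0067845, had 13.3 RPKM in FL ovule and 153 RPKM in WT fiber. Glycerolipid assembly had 5 of 50 higher and 12 lower in FL ovule. A lysophosphatidate-type text, 1-acyl-sn-glycerol-3-phosphate acyltransferase 2-like (Unigene0031171), stood at 0.188 RPKM in FL ovule and 50.45 RPKM in WT fiber, and the delta isoform of that acyltransferase (Unigene0130764) at 13.9 RPKM in FL ovule and 4.70 RPKM in WT fiber. Acyl-CoA handling and beta-oxidation had 6 of 55 higher and 11 lower, with an acyl-CoA-binding protein, Unigene0137767, at 2.08 RPKM in FL ovule and 23.6 RPKM in WT fiber, and a peroxisomal thiolase, Unigene0036829, at 7.49 RPKM in FL ovule and 1.49 RPKM in WT fiber. Very-long-chain elongation, which extends the acids made by the members, had 3 of 34 higher and 19 lower, and its summed level was 256 RPKM in FL ovule and 3408 RPKM in WT fiber. Its 3-ketoacyl-CoA synthase 12 (Unigene0030424) had 0.835 RPKM in FL ovule and 677 RPKM in WT fiber, whereas 3-ketoacyl-CoA synthase 7 (Unigene0028636) had 16.6 RPKM in FL ovule and 9.41 RPKM in WT fiber.

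**Figure D5:**
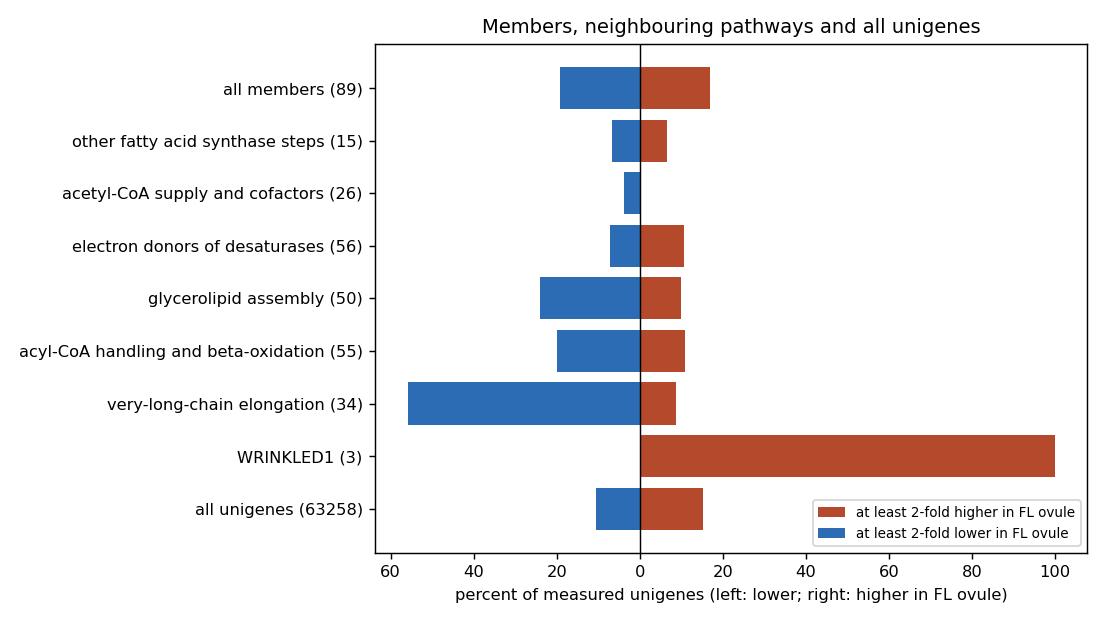
Bars show the percent of measured unigenes (number in brackets) at least 2-fold higher in FL ovule, to the right in red, and at least 2-fold lower, to the left in blue, for the members, the neighbouring lists and all unigenes. All unigenes stand at 15.3% higher and 10.5% lower, and the members at 16.9% higher and 19.1% lower.

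A few fatty acid genes escape the member rule by their spelling and were looked up after the values had been seen, by text and by the pathway labels. The text 3FAD of Gossypium hirsutum, which carries the unsaturated fatty acid pathway label, had 3 measured unigenes, 2 of them at least 2-fold lower in FL ovule. Unigene0057338 had 21.0 RPKM in FL ovule and 41.0 RPKM in WT fiber, Unigene0057339 had 9.69 RPKM in FL ovule and 21.8 RPKM in WT fiber, and Unigene0057340 had 4.17 RPKM in FL ovule and 11.2 RPKM in WT fiber. With totals that leave out the most-read unigenes 0 of the 3 were past 2-fold. Both S-malonyltransferase texts were lower in FL ovule under each scaling: Unigene0073337 had 4.44 RPKM in FL ovule and 23.4 RPKM in WT fiber, 5.28-fold lower (4.82 to 5.79), and Unigene0073338 had 3.34 RPKM in FL ovule and 13.6 RPKM in WT fiber. Carboxyltransferase alpha under its other spelling had 1 of 3 unigenes at least 2-fold higher in FL ovule, Unigene0047016, with 16.9 RPKM in FL ovule and 6.79 RPKM in WT fiber. At a common RPKM sum 0 of the 3 were higher and 1 was lower, beside backgrounds of 7.25% and 21% under that scaling. Unigene0087017, the most abundant of that text, had 21.2 RPKM in FL ovule and 31.2 RPKM in WT fiber. Ketoacyl-ACP synthase II, which extends palmitate to stearate, had 0 of 5 measured unigenes past 2-fold, with Unigene0046200 at 16.9 RPKM in FL ovule and 12.1 RPKM in WT fiber. Over all non-members with the fatty acid biosynthesis label, 5 of 45 measured were higher and 7 lower in FL ovule, with a median of -0.06. Over those with the unsaturated fatty acid label, 5 of 51 were higher and 14 lower, with a median of -0.54. Backgrounds for the counts as deposited were 15.3% higher and 10.5% lower.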

How the data were processed

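RNA of 2 samples was sequenced, 1 library each. Per the labels' protocols, 1 portion of the RNA was selected with oligo-dT, another was depleted of ribosomal RNA, and sequencing was on an Illumina HiSeq. Which portion gave the values is not given in the sources used here. Bowtie and Bowtie2 are named in the submitters' processing notes. Per the file headers, the deposited counts are uniquely assigned reads, and they sum to the totals stated there. The deposited RPKM values were made by the authors from these counts; recomputing them differed by at most 2.6e-10. The sources used here do not give the assembler, the annotation database or the strand setting. None of the unigenes carried a sequence or position. Of 136262 identifiers 0 were found in the RefSeq gene table, and all names are the authors' texts.

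Tables were joined on unigene, with 0 reads where a table does not list one. Folds with an interval are RPKM ratios without pseudocount, with exact (Clopper-Pearson) 95% intervals from the 2 counts (SciPy 1.17.1, pandas 2.3.3). They cover counting error only, because each group was 1 library. PCR copies of a molecule could not be removed by molecular identifiers, and the intervals do not allow for them. The interval calculation was tested on simulated data. Named members are the 2 with the highest RPKM of each role and, at 5 RPKM or more, the 1 with the largest ratio in each direction; for neighbouring lists, 1 in each direction. Further members are named to show ranges. Members and lists were chosen with earlier results of these data known. Alternatives changed pseudocount (0.1 or 5), filter, fold threshold (4), scaling and set of unigenes. The embryo list pattern also took in texts of other protein families.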

Additional observations from a re-analysis of the deposited data

How the results depend on the processing

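No paired analysis was possible because each group was 1 library. The members at least 2-fold higher in FL ovule numbered 15 and became 8 with a pseudocount of 5, with a common RPKM sum, with 1 unigene per annotation text and with 500 bases or longer, 4 at a 4-fold threshold and 30 with library totals that omit the 30 most-read unigenes. Those lower in FL ovule numbered 17 and became 5 at 4-fold, 33 with a common RPKM sum and 9 with 1 unigene per text. Backgrounds for the scalings and for the length cut are given above. For the pseudocount, the 4-fold threshold and 1 unigene per text no background is given. Those counts therefore cannot be set against the change over all unigenes. The members' median of 0.22 became -0.49 with a common RPKM sum, -0.34 with 1 unigene per text, -0.51 with 500 bases or longer and 0.64 with those reduced totals. The summed RPKM ratio of 0.67 became 0.43, 0.74, 0.62 and 0.86 under the common sum, the median ratio, the upper quartile and those totals, 0.58 with 1 unigene per text, 0.61 with 500 bases or longer and, in a choice made after seeing the data, 0.83 without Unigene0130890. Where no other reason stands beside a value, the cause was not tested. The median of the omega-6 desaturases of 1.018 reversed to -0.53 at 5 RPKM or more, where 3 unigenes remain. Depth limits the members with few reads: 62 of 137 had 100 or more reads in FL ovule and 56 in WT fiber.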
